A study of Mus musculus with 28 samples.

Results

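Synaptosomes are nerve terminals that reseal after brain tissue is broken up, often with a piece of postsynaptic membrane and of the surrounding glia attached. The libraries described here are the sorted synaptosomes of mouse brain made in 2 ways. There were 10 SynSURF sorted libraries, from particles sorted after treatment with a reversible fixative, and 3 sucrose sorted libraries, from particles of a sucrose gradient. They are 13 of the 28 libraries of the series and were chosen by their titles alone. The 10 SynSURF crude and 3 sucrose crude libraries, taken before sorting, served only to show whether a difference was already there. All are poly(A) RNA of brain, amplified using Repli-g WTA reagents for single cells, and the labels call the cells primary neurons. Sorted particles of both preparations were taken up in TCEP, a reducing agent, and crude pellets in PBS. The labels give neither strain, age nor sex, and nothing in them says that replicates came from separate animals. The p-values therefore measure only the spread between these libraries, which may be technical. The 2 preparations were deposited in separate count tables, so preparation, sequencing depth and the way reads were assigned to genes cannot be told apart in any difference below.

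Much of the RNA of a neuron or glial cell stays near the nucleus, but part of it is carried into axons, dendrites and myelin-forming processes and is translated there. Messages for cytosolic proteins are translated on free ribosomes, while those for most membrane and secreted proteins are translated on the endoplasmic reticulum. Mbp, the message for myelin basic protein, is a textbook case of RNA carried into the processes of oligodendrocytes.

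SynSURF sorted libraries held fewer genes and a larger share of counts in a few genes than sucrose sorted libraries. The deposited estimated counts in the 23466 gene symbols shared by both tables came to 75186 to 320451 in 9 SynSURF sorted libraries and to 1796133 in replicate 1, against 2950604, 5083382 and 3148743 in the sucrose sorted libraries. With every library thinned to 75186 counts, 3099.9 ± 479 genes had a count in the SynSURF libraries (SD, n = 10, range 2499 to 3996.5), against 8007.1 ± 144 genes in the sucrose libraries (SD, n = 3, range 7860 to 8147.3). The ranges lie far apart. An exact 2-sided permutation test of the means gave p = 0.00699, the smallest that the 286 possible splits allow, and an adjusted p of 0.00874 over 5 measures. A share of 34% ± 17.6 of SynSURF counts lay in the 10 most abundant genes of a library, against 8.86% ± 3.21 of sucrose counts (SD, n = 10 and 3, exact permutation p = 0.00699).

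Rn45s, the precursor of ribosomal RNA, took 0.821% to 63.3% of counts in SynSURF libraries, and 0.584% to 6.84% in sucrose libraries. These ranges overlap, and the difference of 17.2 percentage points did not pass the exact permutation test (p = 0.154). With Rn45s left out, the share of the 10 most abundant genes was 18.5% ± 3.51 in SynSURF libraries and 6.68% ± 0.682 in sucrose libraries. At an equal depth of 31015 counts without Rn45s, 2561.7 ± 348 genes had a count in SynSURF libraries and 6099.6 ± 70.5 in sucrose libraries.

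**Figure D1:**
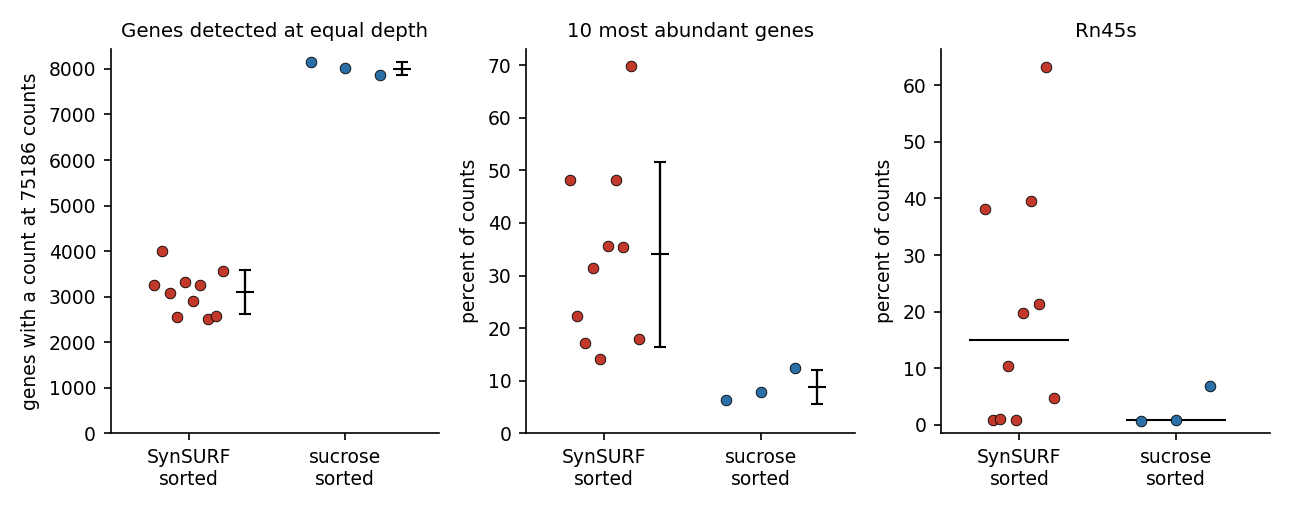
Each point is 1 sorted library, with SynSURF replicates 1 to 10 and sucrose replicates 1 to 3 running from left to right within a group. The panels show genes with a count at equal depth and the percent of counts in the 10 most abundant genes (bars, mean ± SD), and the percent in Rn45s (line, median). The 10 SynSURF libraries hold 2499 to 3996.5 genes and the 3 sucrose libraries 7860 to 8147.3, while the Rn45s shares overlap.

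The SynSURF libraries were also less like each other. At equal depth the median Spearman correlation over genes was 0.394 among the 45 SynSURF pairs and 0.698 among the 3 sucrose pairs, and it was 0.405 between the preparations. A pair of SynSURF libraries shared a median of 34.4% of detected genes, and a pair of sucrose libraries 66.1%. Over 780 genes with at least 10 thinned counts on average in each group, the median coefficient of variation was 1.39 among SynSURF libraries and 0.31 among sucrose libraries. It was higher in SynSURF for 771 of those genes. At the mean share of the sucrose libraries, 1568 genes would have at least 10 counts at this depth, and between 19.2% and 44.5% of them were at 0 in a given SynSURF library. Held against the other sucrose libraries in the same way, a sucrose library had 0.125% to 0.255% of such genes at 0. Replicate 4 stood furthest apart, with a median correlation of 0.313 to the other SynSURF libraries.

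The fit across genes compared SynSURF sorted with sucrose sorted libraries by the quasi-likelihood test of edgeR, and a gene was called at a p under 0.05 after Benjamini-Hochberg adjustment. Of 3715 genes tested, 9 were higher in SynSURF (0.242% of genes tested) and 193 were lower (5.20%). The filter keeps a gene by its counts in as few as 3 libraries of either group. A gene high in 1 group can thus enter through that group alone, so these shares depend on the filter. The unadjusted p was under 0.05 for 512 genes. Over all genes tested the log2 fold change had a median of 0.04, so each value below is read against about 0. It became -0.996 with plain library totals and 0.78 with DESeq2 size factors. The counts of calls rested on the 3 sucrose libraries. Without sucrose replicate 1, 2 or 3 the fit called 2, 2 and 3 genes higher, and 87, 109 and 146 lower. Without SynSURF replicate 4 it called 11 higher and 149 lower, and without replicates 1 and 4 it called 12 and 152. DESeq2 called 179 genes higher and 354 lower, so that 33.6% of its calls were higher, against 4.46% by edgeR.

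A count of genes without overlap, with the libraries scaled as in the fit, also had few genes above and more below. The 2 directions are not alike in it. Only a gene with a count in all 10 SynSURF libraries can lie above, which 596 genes of both tables had, while a gene at 0 can lie below. In 31 genes (0.834%) every SynSURF library lay above every sucrose library in CPM (counts scaled to a common library size), and in 428 genes (11.5%) every SynSURF library lay below. At equal depth 1861 genes could be tested, and 8 were higher (0.430%) and 60 lower (3.22%). Of these, 7 and 39 were also called at full depth. At that depth 27 genes (1.45%) lay above in every library and 167 (8.97%) below.

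Of the 9 higher genes, Mbp and Mobp encode myelin proteins. Mbp had 13700 to 55410 CPM in SynSURF libraries with a median of 33000, against 1763, 2880 and 2525 CPM in sucrose libraries. All 10 SynSURF libraries lay above all 3 sucrose libraries, by 3.77 ± 0.90 on the log2 scale (SE, edgeR adjusted p = 0.0133). Mobp, which encodes a structural protein of myelin, had 4027 to 16190 CPM with a median of 9687 in SynSURF libraries, against 47.8, 30.45 and 37.28 CPM in sucrose libraries. Its groups lay further apart, by 7.95 ± 1.16 (edgeR adjusted p = 0.00105). CPM are relative to a library total scaled by its TMM factor, so the CPM of an abundant gene can exceed its plain share of counts.

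Fth1, the heavy chain of the iron store ferritin, had 8362 to 59810 CPM in SynSURF libraries with a median of 17150, against 3010, 1810 and 2304 CPM in sucrose libraries. The groups did not overlap, and the difference was 3.23 ± 0.92 (SE, edgeR adjusted p = 0.0433). Trp53inp2, a regulator of autophagy, had 451.6 to 6194 CPM with a median of 2785 in SynSURF libraries, against 105.6, 237.8 and 191.6 CPM in sucrose libraries, a difference of 3.99 ± 1.15 (edgeR adjusted p = 0.0465). These 2 calls and that of Mbp were near the threshold. Each was lost when any single sucrose library was left out, with the largest adjusted p at 0.183 for Mbp, 0.311 for Fth1 and 0.401 for Trp53inp2. The Fth1 call was also lost without SynSURF replicate 7, 8 or 9, and that of Trp53inp2 without replicate 5, 6, 9 or 10. The call of Mobp held in all 13 such fits. The log2 difference itself stayed between 3.59 and 3.98 for Mbp, between 2.98 and 3.44 for Fth1, and between 7.77 and 8.15 for Mobp.

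Before sorting, Mbp, Fth1 and Trp53inp2 were not called between the preparations. Over the 10 SynSURF crude and 3 sucrose crude libraries, 11621 genes were tested, of which 228 (1.96%) were higher in SynSURF and 42 (0.361%) lower by the same edgeR test. Mbp had 1809 to 5603 CPM in SynSURF crude and 2944 to 5885 CPM in sucrose crude libraries. Its crude difference was -0.16 ± 0.33, and those of Fth1 and Trp53inp2 were -0.47 ± 0.39 and 0.22 ± 0.35. A further contrast in 1 fit of all 26 libraries tested whether the difference between preparations was larger in sorted than in crude libraries. It called 32 of 10713 genes (0.299%) as larger in the SynSURF direction and 1853 (17.3%) in the sucrose direction. Mbp was among the 32 with 3.75 ± 0.70 (edgeR adjusted p = 0.00074), Fth1 with 3.54 ± 0.79 (0.00277) and Trp53inp2 with 3.62 ± 0.95 (0.00875). With the replicate number as a block for crude and sorted libraries, the 32 became 10. In edgeR the 3 genes kept their calls there, with adjusted p of 0.00711, 0.00859 and 0.0174. Mobp already differed by 3.86 ± 0.39 in crude libraries, and sorted libraries added 3.96 ± 0.71 to it (edgeR adjusted p = 0.000694).

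**Figure D2:**
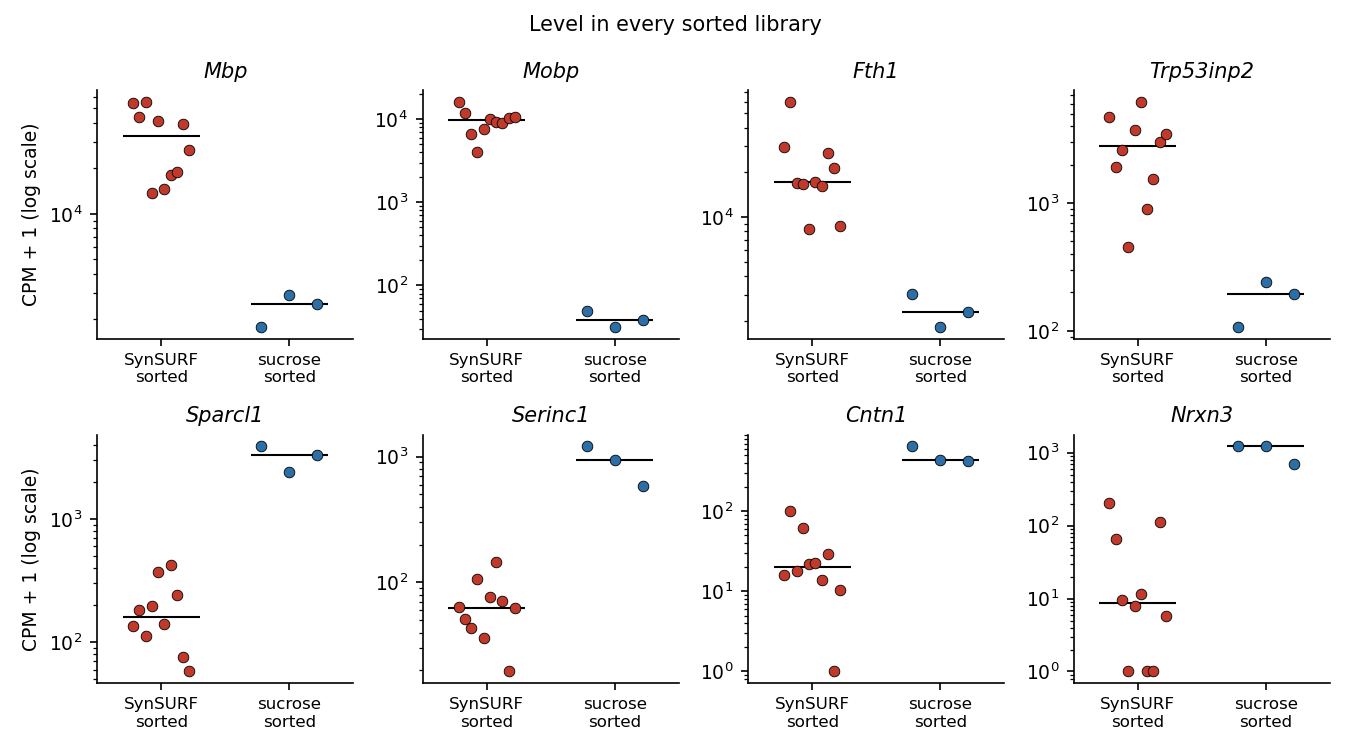
CPM plus 1, on a log axis, of 8 genes in each SynSURF sorted and sucrose sorted library (points, 1 library each; line, median). For Mbp, Mobp, Fth1 and Trp53inp2 all 10 SynSURF libraries lie above the 3 sucrose libraries, and for Sparcl1, Serinc1, Cntn1 and Nrxn3 all 10 lie below.

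The other 5 of the 9 higher genes differed between the preparations before sorting as well. Rims3, a presynaptic active zone protein, had 7.527 to 3620 CPM in SynSURF sorted libraries and no count in any of the 6 sucrose libraries, sorted or crude. Taking 3 counts over the 3 sucrose sorted libraries as the floor, it was at least 6511-fold higher in SynSURF, or at least 2530-fold with plain library totals. Rims1, a larger relative of Rims3 that tethers calcium channels at the active zone, had 130.4 to 2942 CPM in SynSURF sorted libraries, against 4.78, 17.74 and 7.415 CPM in sucrose sorted libraries. It differed by 6.11 ± 1.62 after sorting and 5.93 ± 0.83 before (edgeR adjusted p = 0.0262 and 0.000111). Its call was lost without any 1 of the 3 sucrose libraries. Shc3, a neuronal signalling adaptor, differed by 7.25 ± 1.59 after sorting and 9.73 ± 0.66 before, and Pnmal1 by 8.72 ± 2.28 and 8.12 ± 0.58. Both calls were likewise lost without any 1 sucrose library.

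Pvalb, the calcium buffer parvalbumin of a class of inhibitory neurons, had 4.735 to 171.5 CPM in SynSURF sorted libraries and no count in the sucrose sorted libraries. It was at least 177.5-fold higher by the same floor, or at least 68.99-fold with plain library totals, and its call was lost without sucrose replicate 1 or 2 (highest adjusted p = 0.0506). In SynSURF crude libraries Pvalb had 11.74 to 50.55 CPM, against at most 0.1437 CPM in sucrose crude libraries. Across the series 18 genes had no count in any of the 6 sucrose libraries and a count in every SynSURF crude library. The reverse, no count in 20 SynSURF libraries and a count in every sucrose crude library, held for 8. In crude libraries 281 genes (2.42%) lay above in every library and 42 (0.361%) below. With Mobp, 6 of the 9 higher genes were called in the same direction in crude libraries. Of the 193 lower genes 1 was, Eno1b, named here after its values were seen. It is a close copy of Eno1, which differed by 0.75 in sorted and 2.10 in crude libraries. Whether the counting split reads between the copies was not tested. The sorted and crude differences had a Pearson correlation of 0.263 and a Spearman correlation of 0.199 across 3714 genes, as a description of libraries that share a count table on each side.

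**Figure D3:**
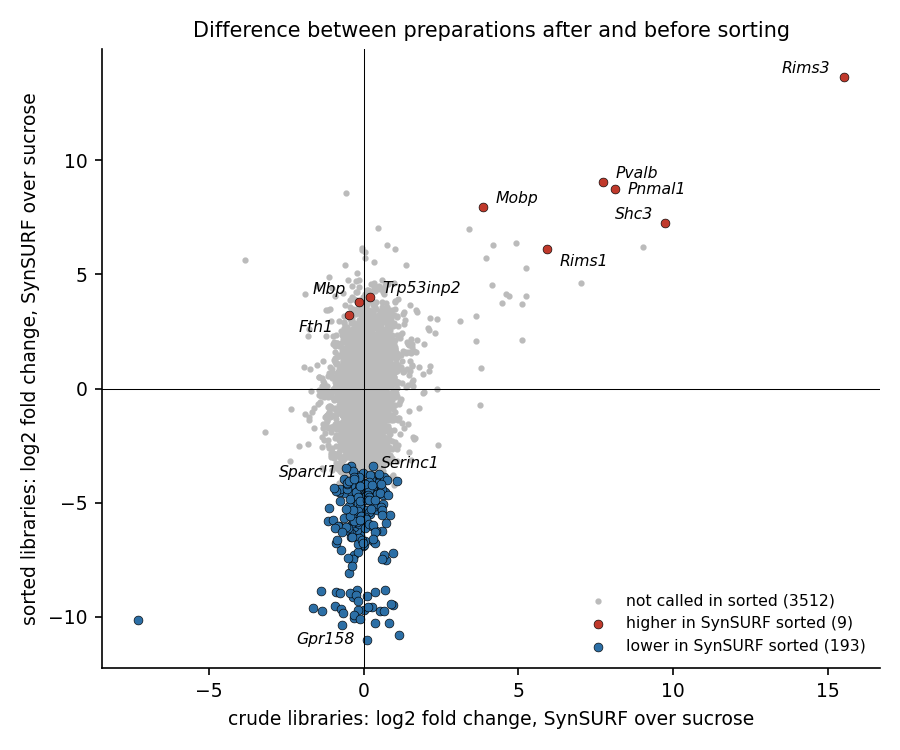
Each point is a gene tested in both comparisons. The horizontal axis gives the log2 fold change of SynSURF over sucrose in crude libraries, and the vertical axis the same in sorted libraries. The 193 genes lower in SynSURF sorted libraries sit around 0 on the crude axis, with a median of -0.12 and Eno1b apart from them, while Rims3, Rims1, Shc3, Pnmal1, Pvalb and Mobp are high on both axes and Mbp, Fth1 and Trp53inp2 only on the sorted axis.

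Among the genes above in every library but not called, several differed more after sorting than before. They were picked by their sorted values, which also enter the contrast of sorted against crude differences. Trak2, an adaptor that links mitochondria to motor proteins, had 2783 to 7847 CPM in SynSURF libraries with a median of 4548, against 408.2, 580.1 and 581.2 CPM in sucrose libraries. The difference was 3.19 ± 0.93 (edgeR adjusted p = 0.0511), it passed the threshold in 5 of 13 fits with 1 library left out, and its crude difference was 0.06. Bcas1, a marker of early myelinating oligodendrocytes, had 154.1 to 2679 CPM in SynSURF libraries, against 35.97, 38.92 and 48.2 CPM in sucrose libraries (edgeR adjusted p = 0.0834). The contrast of sorted against crude differences gave 2.96 ± 0.73 for Trak2 (edgeR adjusted p = 0.00548) and 4.32 ± 1.13 for Bcas1 (0.00842). It was also past the threshold for Pkp4, a junctional plaque protein, at 3.47 ± 0.88 (edgeR adjusted p = 0.00693). Prr18 gave 3.39 ± 1.12 (0.0352) and S100b, a calcium-binding protein of glia, 2.77 ± 0.95 (0.0411). These 2 calls were lost with the replicate block (edgeR adjusted p = 0.0882 and 0.0570) and with plain library totals (0.0550 and 0.0967), and that of Prr18 at equal depth (0.0777).

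Most lower genes had a count in at most 3 SynSURF libraries. All 193 lay below in 10 of 10 SynSURF libraries. Of them, 33 had no count in any SynSURF library, 136 a count in 1 to 3 libraries, 19 in 4 to 7 and 5 in 8 to 10. All 193 had a count in all 3 sucrose libraries, and the 33 passed the filter only through those. In crude libraries their median difference was -0.12. The contrast of sorted against crude differences called 188 of the 193, where it called 1853 of 10713 genes (17.3%) in the sucrose direction. It uses the same sorted libraries by which the 193 were chosen, so the 188 are no separate support.

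The 5 lower genes with a count in 8 to 10 SynSURF libraries all encode proteins that pass through the endoplasmic reticulum. In the deposited terms used below, Serinc1 and Ptprd are integral membrane, Sparcl1 and Spock1 extracellular, and Cntn1 neither. Sparcl1, a matricellular protein secreted by astrocytes, had 56.82 to 418.2 CPM in SynSURF libraries with a median of 159.8, against 3900, 2405 and 3284 CPM in sucrose libraries. The highest SynSURF value was well under the lowest sucrose value. It was lower by -4.06 ± 0.80 (SE, edgeR adjusted p = 0.00294) and stayed past the threshold in all 13 fits with 1 library left out. Serinc1, a multipass membrane protein, had 18.63 to 143.8 CPM in SynSURF libraries with a median of 62.26, against 1212, 935.5 and 582.7 CPM in sucrose libraries (-3.77 ± 0.89, edgeR adjusted p = 0.0111, lost without sucrose replicate 1 or 2). Cntn1, an adhesion molecule of axons, had 0 to 100.1 CPM in SynSURF libraries, against 652, 437.4 and 423.5 CPM in sucrose libraries (-4.11 ± 1.06, edgeR adjusted p = 0.0218). Spock1, a proteoglycan, and Ptprd, a receptor phosphatase of presynaptic terminals, were lower by -3.76 ± 1.06 and -3.71 ± 1.06 (edgeR adjusted p = 0.0393 and 0.0433). The Cntn1 call was lost without any 1 sucrose library, and those of Spock1 and Ptprd in 9 and 10 of the 13 fits.

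Other abundant lower genes were counted in fewer SynSURF libraries. Nrxn3, a presynaptic adhesion molecule, had 0 to 199.9 CPM in SynSURF libraries with a median of 7.756, against 1231, 1224 and 691.4 CPM in sucrose libraries (-4.65 ± 1.30, edgeR adjusted p = 0.0385, lost in 8 of 13 fits with 1 library left out). Adcy9, an adenylyl cyclase, had a count in 3 SynSURF libraries with a highest value of 123.1 CPM, against 1939, 498.1 and 268.8 CPM in sucrose libraries (edgeR adjusted p = 0.0199). That call was lost without sucrose replicate 1 or 2. In the contrast of sorted against crude differences, the sorted difference exceeded the crude one by -3.83 ± 0.83 for Sparcl1, -4.22 ± 0.83 for Serinc1 and -4.43 ± 1.5 for Nrxn3.

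The most abundant sucrose messages without a count in SynSURF included 2 receptors of neurons. Gpr158, an orphan receptor, had no count in any of the 10 SynSURF libraries, against 227.2, 182.4 and 127.5 CPM in sucrose libraries. Its level was at least 108.7-fold lower in SynSURF, taking 3 counts over the 10 libraries as the floor. Cnr1, the cannabinoid receptor of presynaptic terminals, had none, against 155.5, 88.04 and 103.2 CPM in sucrose libraries (at least 67.11-fold lower). Ptprr, a receptor-type phosphatase, was at least 101-fold lower, and Klhl42 and Lrrc47 at least 64.1-fold and 58.33-fold lower. These 5 calls held in all 13 fits with 1 library left out. The genes had no count to lose where a SynSURF library was left out, so those fits say little about the calls. Oaz1-ps, a pseudogene of an abundant gene, had 5003 counts in the sucrose libraries, all of them in replicate 1. The most abundant SynSURF messages without a sucrose count, other than Rims3, came from few libraries. Lzts1 reached 2599 CPM in replicate 3, Zdhhc23 1482 CPM in replicate 5, Muc5b and Cyp4x1 1103 and 804.9 CPM in replicate 10, and Cyb5d1 had 53 counts in replicate 6. Of the genes in both tables, 2759 had a count in all 3 sucrose libraries and in no SynSURF library. The depth of these libraries limits that number, and the reverse was seen for 2 genes.

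Genes of membrane proteins took a larger share of lower calls than of genes tested. The authors' deposited Gene Ontology cellular component terms name an integral membrane protein for 816 of the genes tested, and this grouping was chosen after the fold changes were seen, so its counts carry no test. None of the 816 was called higher and 99 (12.1%) were called lower, against 5.20% of all genes tested. In 201 of them (24.6%) every SynSURF library lay below every sucrose library, against 11.5% of all genes. They were 22% of genes tested and 51.3% of lower calls. Their median log2 fold change was -1.32 in sorted libraries and 0.17 in crude libraries. The 2631 annotated genes with neither a membrane nor an extracellular term held all 9 higher calls and 78 lower ones (2.96%). Cntn1, whose protein passes through the reticulum, is among the 78, so this class is not free of such proteins. Their median was 0.36 in sorted and 0.03 in crude libraries. That median turned to -0.66 with plain library totals, where the membrane median was -2.30 and that of all genes tested -0.996.

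The gap between the classes did not rest on 1 library. With each library left out in turn, the membrane median ran between -1.42 and -1.12 and that of the other class between 0.33 and 0.45. Without SynSURF replicate 4, 81 of 707 membrane genes (11.5%) and 52 of 2272 genes of the other class (2.29%) were lower. Without sucrose replicate 1, the setting with fewest calls, these were 42 of 739 (5.68%) and 31 of 2498 (1.24%). At equal depth 34 of 367 membrane genes (9.26%) and 23 of 1343 of the others (1.71%) were lower. The 221 genes with an extracellular term only had 13 lower calls (5.88%), near the 5.20% of all genes tested, and a median of -0.23. The 365 genes of the endoplasmic reticulum had 29 (7.95%) and a median of -0.89. Beside them, 88 ribosome genes had no lower call and a median of 0.73, and 480 genes of mitochondria had 10 (2.08%) and a median of 0.15. Not all membrane genes were alike. The 113 with both a mitochondrion and an integral membrane term had 3 lower calls (2.65%) and a median of -0.26. The ribosome and mitochondrion medians were -0.24 and -0.82 with plain library totals, against -0.996 over all genes tested.

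Counted by share and not by gene, the same split appeared in each library. Genes of integral membrane proteins took 3.97% to 15.8% of counts other than Rn45s in SynSURF sorted libraries, with a median of 13.4%, against 28%, 27% and 22.9% in sucrose sorted libraries. The 10 SynSURF crude libraries held 24.7% to 29.1% and the 3 sucrose crude libraries 27.1%, 26.5% and 23%. Each SynSURF sorted library was thus below each of the 16 other libraries, replicate 4 being lowest at 3.97% and the other 9 between 11.1% and 15.8%. Genes with an extracellular term only took 6.47% to 14.7% in SynSURF sorted libraries and 9.44%, 9.24% and 8.27% in sucrose sorted libraries, which overlap. In bulk libraries, fewer particles of a kind and less of a message per particle cannot be told apart.

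**Figure D4:**
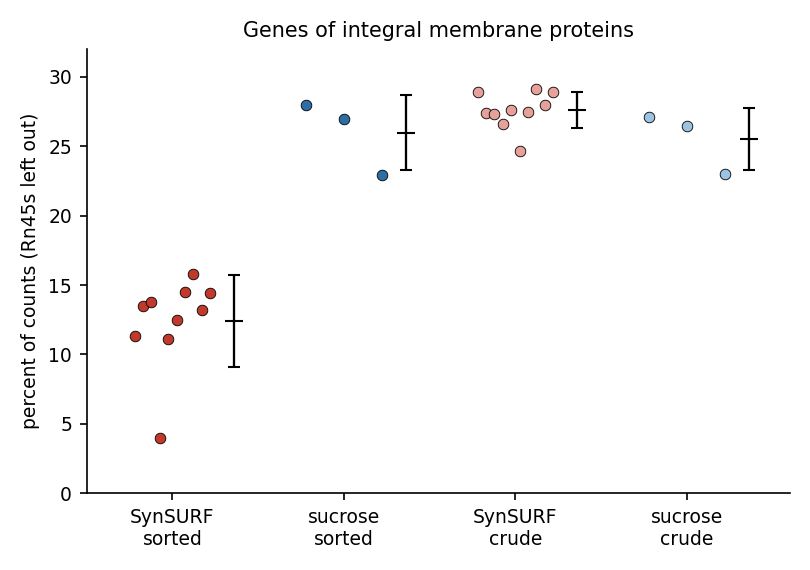
Percent of counts, with Rn45s left out of the total, that fell in genes of integral membrane proteins in each of 26 libraries (points; bars, mean ± SD). SynSURF sorted libraries run between 3.97% and 15.8%, and all sucrose sorted, SynSURF crude and sucrose crude libraries between 22.9% and 29.1%.

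Among the 25 lower membrane genes with the highest CPM in sucrose libraries were adhesion molecules, channels and enzymes of the secretory path. Nrcam, a cell adhesion molecule of axons, had at most 28.03 CPM in SynSURF libraries, against 534, 401.3 and 299.7 CPM in sucrose libraries (-6.83 ± 1.40, edgeR adjusted p = 0.00364). Sort1, the sorting receptor sortilin, had at most 28.03 CPM in SynSURF libraries, against 338.5, 284.2 and 210.3 CPM in sucrose libraries (-6.30 ± 1.36). Stt3b, a subunit of the enzyme that glycosylates proteins in the reticulum, had at most 37.63 CPM in SynSURF libraries, against 277.3, 291 and 266.9 CPM in sucrose libraries (-5.56 ± 1.29). Ryr2, a calcium release channel of the reticulum, and Nalcn, a sodium leak channel, were lower by -7.48 ± 1.33 and -6.69 ± 1.22. These 5 were picked after their values were seen, and their crude differences lay between -0.33 and 0.59.

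The median difference was lower in groups of longer transcripts. Genes were put in 5 equal groups by their longest annotated transcript, the shortest group at 216 to 2411 bases and the longest at 6344 to 27908 bases. In that order the median log2 fold change in sorted libraries was 0.58, 0.28, 0.01, -0.26 and -0.79, and with plain library totals -0.38, -0.73, -1.01, -1.28 and -1.78. In the shortest group 19 of 743 genes (2.56%) were called lower and in the longest 55 of 742 (7.41%), against 5.20% of all genes tested. No test of this order was made. In crude libraries all 5 medians lay between -0.02 and 0.10. Medians of 5 such groups by transcript GC content lay between -0.09 and 0.16 in sorted libraries, with no order. In each length group, genes with a membrane or extracellular term had a lower sorted median than those with neither. In the shortest group these medians were -0.26 and 0.92 (-1.15 and -0.11 with plain library totals), and in the longest -2.06 and -0.28. The count-weighted median transcript length was 3384 to 3934 bases in SynSURF sorted libraries, against 4115, 4115 and 4181 bases in sucrose sorted libraries.

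**Figure D5:**
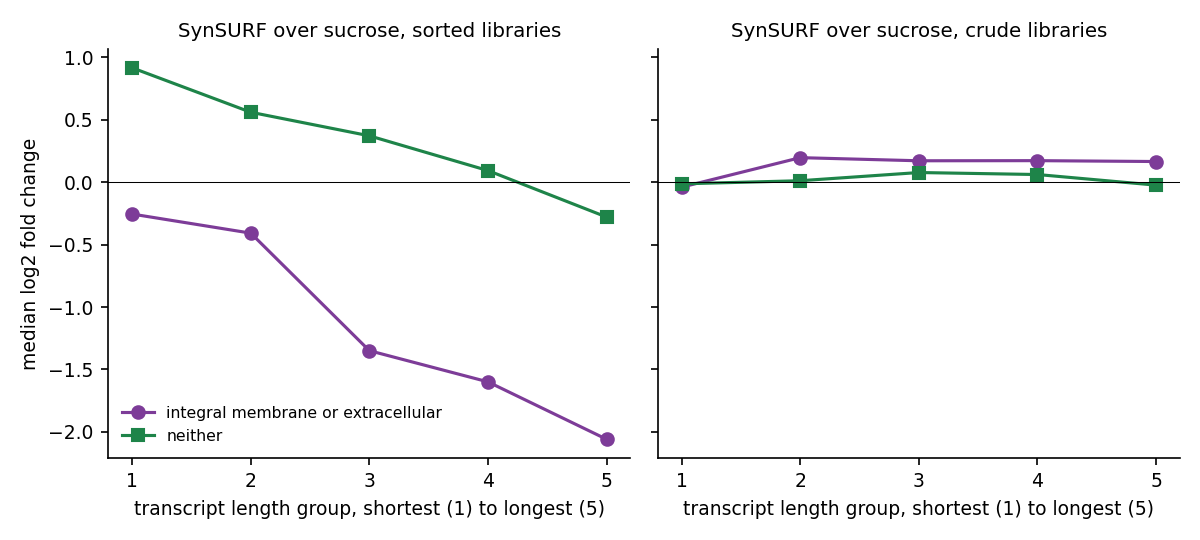
Median log2 fold change of SynSURF over sucrose in 5 groups of transcript length, for genes with an integral membrane or extracellular term and for genes with neither, in sorted (left) and crude (right) libraries. In sorted libraries both lines fall with length, with medians of -0.26 and 0.92 in the shortest group and -2.06 and -0.28 in the longest, and in crude libraries both stay near 0.

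Markers of cell types did not move together. Of 12 oligodendrocyte markers 7 were tested, and 2, Mbp and Mobp, were higher, where 0.242% of all genes tested were. The median of the 7 was 2.14 (1.43 with plain library totals), against 0.04 over all genes. The list took 0.794% to 6.95% of counts in SynSURF libraries, against 0.645% to 0.659% in sucrose libraries. Cnp, an enzyme of myelin, and Ermn, a cytoskeletal protein of myelin, differed by 2.33 ± 1.30 and 2.14 ± 1.52 and were not called. Of the 7, 6 had a positive difference, with Cldn11 at 0.27 ± 1.16, and Mal a negative one of -1.28 ± 1.38.

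Of 10 astrocyte markers, 8 were tested and none was called, with a median of -1.5. Of the 8, 5 had a negative difference, and Aldoc (0.13), Sox9 (0.90) and S100b (2.50), the last of which lay above in every library, a positive one. The list took 0.0904% to 0.699% of counts in SynSURF libraries and 1.52% to 2.27% in sucrose libraries. Slc1a2, the main glutamate transporter of astrocytes, had 64.3 to 6622 CPM with a median of 2768 in SynSURF libraries, against 8916, 12670 and 7836 CPM in sucrose libraries (-1.73 ± 0.88, edgeR adjusted p = 0.417). Gfap, an astrocyte filament protein, had 0 to 27.97 CPM in SynSURF libraries, against 128.4, 139.4 and 87.74 CPM in sucrose libraries (-3.85 ± 1.13, adjusted p = 0.051). In both genes every SynSURF library lay below every sucrose library. Gfap passed the threshold in 2 of 13 fits with 1 library left out and in the contrast of sorted against crude differences (-3.87 ± 1.19, edgeR adjusted p = 0.0233, but 0.119 at equal depth).

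Of 8 general neuron markers, all were in both tables, 7 were tested and none was called, with a median of 0.45, which was -0.30 with plain library totals. With those totals the median of all genes tested was -0.996. None of the 8 was at 0 throughout the SynSURF libraries. Snap25, a core protein of vesicle fusion, had 865.6 to 7727 CPM with a median of 3537 in SynSURF libraries, against 898.7, 894.7 and 1148 CPM in sucrose libraries (1.93 ± 0.91, edgeR adjusted p = 0.352). A membrane protein that senses calcium for fusion, Syt1, had 7.527 to 1404 CPM with a median of 118.3 in SynSURF libraries, against 2994, 2123 and 1553 CPM in sucrose libraries (-3.13 ± 1.04, adjusted p = 0.0963). Every SynSURF library was below every sucrose library for Syt1, which passed the threshold in 1 of 13 fits with 1 library left out. Its sorted difference exceeded the crude one by -3.52 ± 1.21 (edgeR adjusted p = 0.041, but 0.112 at equal depth). All 7 endothelial and mural markers had no count in any SynSURF library, as had 13560 of the 23466 genes in both tables. They took 0.00372% to 0.00637% of counts in sucrose libraries, a share that gives few counts at the depth of the SynSURF libraries. Microglial markers took 0.0021% to 0.0546% in SynSURF libraries and 0.0381% to 0.0924% in sucrose libraries. The part of these cell types in the other differences was not tested.

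Synaptic messages lay on both sides of 0. Of 37 presynaptic genes 29 were tested, 1 was higher, which was Rims1, and 4 were lower, with a median of -0.76, where 5.20% of all genes tested were lower. Bsn, a scaffold of the active zone, had 0 to 39.21 CPM in SynSURF libraries, against 230.1, 234.3 and 182.5 CPM in sucrose libraries (-4.62 ± 1.20, edgeR adjusted p = 0.0238). Amph, an endocytic adaptor, had a count in 1 SynSURF library, against 123.8, 95.45 and 68.18 CPM in sucrose libraries (-7.10 ± 1.14, adjusted p = 0.00105). Syngr3, a vesicle membrane protein, was lower by -5.57 ± 1.07 (edgeR adjusted p = 0.00245), and Nrxn3 is given above. Of 35 postsynaptic genes 23 were tested and none was called, with a median of -1.4, and in 8 every SynSURF library lay below every sucrose library, where 11.5% of all genes did. Gria2, a subunit of AMPA-type glutamate receptors, had 0 to 260.8 CPM in SynSURF libraries, against 588.2, 406.2 and 318 CPM in sucrose libraries (-2.48 ± 1.23, edgeR adjusted p = 0.397). The crude medians of the 2 lists were 0.00 and 0.34.

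Camk2a, a kinase whose message is known from dendrites, had 7.527 to 2240 CPM in SynSURF libraries, against 670.2, 858 and 440.8 CPM in sucrose libraries, and was not called (-0.93 ± 1.34). Vamp2, a vesicle protein, had 0 to 5171 CPM in SynSURF libraries, against 163.7, 200 and 219.6 CPM in sucrose libraries (2.28 ± 1.52). Gad1, which makes the inhibitory transmitter GABA, had 0 to 1468 CPM in SynSURF libraries, against 395.4, 239.8 and 216.3 CPM in sucrose libraries. Its difference was -0.37 ± 1.71, and it was 0.35 with DESeq2 size factors. In each of these 3 genes the SynSURF libraries lie on both sides of the sucrose ones. Of 19 tested messages known from dendrites or axons, 1 was higher, Mbp, and none lower, with a median of 0.28, which was -0.51 with plain library totals. With those totals the median of all genes tested was -0.996.

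Messages of the RNA machinery had high medians but no call. Of 24 tested splicing and nuclear RNA-binding genes, all 24 had a positive difference, with a median of 2.71, and of 27 translation factors 18 did, with a median of 1.11. Of all 3715 genes tested, 1881 did. Some of the 24, such as U2af1 (mean 7.158 CPM in sucrose libraries), passed the filter only through SynSURF libraries, which fixed their sign. With plain library totals, 19 of the splicing genes and 14 of the translation factors were positive, with medians of 1.34 and 0.20. Over all genes tested, 1055 were positive on that scale, with a median of -0.996. Single libraries carried much of these high medians. Without SynSURF replicates 1 and 4 the medians were 0.97 over 16 genes tested and 0.31 over 26. Hnrnph1, a splicing regulator, had 0 to 50400 CPM in SynSURF libraries with a median of 78.2, against 42.8, 45.41 and 32.54 CPM in sucrose libraries, and 95.3% of its SynSURF sum came from 1 library. Eif4g2, a translation factor, had 186.3 to 81710 CPM in SynSURF libraries, against 873.2, 460.9 and 1088 CPM in sucrose libraries, and 1 library gave 75.6% of its sum. Over all genes tested, a median of 52.3% of the SynSURF sum came from 1 library. Ribosomal protein genes had a median of 0.58 over 68 tested, which was -0.47 with plain library totals, and nuclear-encoded genes of oxidative phosphorylation 0.08 over 51, which was -0.84. Neither list had a call.

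On the authors' TPM scale, which corrects for transcript length, Fth1 and Mbp were among the 15 genes of highest median level in both groups. Fth1 had a median of 41750 TPM in SynSURF libraries, against 13270, 7771 and 11330 TPM in sucrose libraries. Mbp had a median of 30300 TPM in SynSURF libraries, against 2977, 4544 and 4665 TPM in sucrose libraries. Mobp stood at a median rank of 20.5 among genes in SynSURF libraries and of 2961 in sucrose libraries. Of the 15 genes of highest median TPM in each group, 9 were shared.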

How the data were processed

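Per the labels' protocols, poly(A) RNA of brain synaptosomes was amplified, built into 10x Genomics libraries and sequenced in paired-end mode. Per the submitters' processing notes, HISAT2 and fastp were used, with the builds GRCm38 and GRCm39. For the strand setting, annotation and counting tool, nothing is given in the sources used here. The authors deposited estimated counts per gene symbol, rounded to whole numbers here, and TPM, used only for levels. A further 31 columns with values per sample were left unused, and the total RNA libraries are not analysed here. Counts outside the 23466 shared symbols were 0.917% to 2.25% of a sorted library.

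Groups came from the titles. Tests used edgeR 4.0.16 (R 4.3.3) with TMM factors, filterByExpr and group as the term; limma 3.58.1 and DESeq2 1.42.0 were alternatives. The SE is the size of the log2 fold change over the square root of F. Counts of detected genes are means of 20 thinnings per library. The fits at equal depth and the other equal-depth measures used only the thinning of the first seed. List medians were the same at 2 decimals with genes at 0 in a group set to their bound. Scripts were tested on simulated data. Transcript length and GC are of the longest GENCODE M21 transcript (GRCm38), found for 99.9% of genes tested, and deposited component terms cover 98.7%.

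Named genes were a panel of cell type and synaptic genes, of which Malat1 did not pass the filter; called genes of at least 50 mean CPM with a count in at least 8 SynSURF libraries, by largest change; the 4 most abundant called in each direction; up to 2 called members per list; and the 6 most abundant at 0 in either group. Others, the genes above in every library among them, were named after their values were seen. The members and lists were chosen with earlier results of these data known. Some genes that the rule names are not reported here. Floors cover counting error only.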

Additional observations from a re-analysis of the deposited data

Results flagged for a closer look

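Single SynSURF sorted libraries stood far from the other 9 in 6 of 57 measures. A chance rate of about 1 in 20 applies at most to each measure alone. The measures come from the same libraries and are not independent, so 6 of 57 cannot show an excess over chance. Replicate 4 was lowest in the share of counts in integral membrane genes, at 3.97%, in Rims3, at 7.527 CPM, and in Pnmal1, at 0 CPM, and highest in Srsf2, a splicing factor, at 1490 CPM. Replicate 6 was lowest in Slc1a2, at 64.3 CPM, and replicate 9 in Cntn1, at 0 CPM. Gene levels were compared for this as log2 of CPM plus 1. For Pnmal1 and Cntn1 the lowest value is a count of 0, so the gap depends on the 1 that was added.

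The difference between SynSURF and sucrose differed between sorted and crude libraries in 23 of 57 genes tested for it, by edgeR's adjusted p. Over all 10713 genes, 32 (0.299%) were called in the SynSURF direction and 1853 (17.3%) in the sucrose direction. Many of the 57 were named by their sorted values, which enter this contrast, so the 23 are no separate support. The log2 value of the sorted less the crude difference was positive for Mbp (3.754), Mobp (3.955), Fth1 (3.539), Trp53inp2 (3.618), Rn45s (5.78), Bcas1 (4.316), Pkp4 (3.474), Prr18 (3.387), S100b (2.77) and Trak2 (2.958). It was negative for Syt1 (-3.52), Gfap (-3.871), Cntn1 (-4.062), Sparcl1 (-3.832), Serinc1 (-4.218), Spock1 (-4.414), Ptprd (-3.845) and Nrxn3 (-4.434). Gpr158 (-12.42), Ptprr (-13.26), Cnr1 (-10.97), Lrrc47 (-12.4) and Klhl42 (-11.94) had no count in SynSURF sorted libraries, so their fitted values depend on the prior count and are no bounds.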

How the results depend on the processing

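Against 9 genes higher and 193 lower, plain library totals gave 390 lower, DESeq2's Wald test 179 higher and 354 lower, limma voom 91 and 1674, no filter 164 and 2348, a 5 CPM minimum 24 and 1745, and SynSURF replicate 1 alone, assumed to vary like the sucrose libraries, 1415 and 3678. Thinning gave 60 lower at equal depth and 80 with sucrose libraries thinned. Leaving out 1 library gave 2 to 11 higher and 87 to 225 lower. Genes above in every library, 31, became 53 with DESeq2 size factors, 10 with totals and 48 without replicates 1 and 4. Genes below, 428, became 759 with totals, 167 at equal depth and 239 with sucrose thinned. At equal depth a second thinning seed gave 5 higher and 42 lower, against 8 and 60 with the first. Thinned crude libraries gave 26 lower. The contrast of sorted against crude differences gave 21 and 3012 with totals and 9 and 198 at equal depth. Actb (-0.243) reversed with totals, Gad1 (0.346) with DESeq2 size factors and Vamp2 (-0.021) in replicate 1 alone. The cause was not tested. With DESeq2 size factors in edgeR (10 and 139), Rn45s removed (10 and 193) or a minimum log2 fold change of 1 (7 and 163), counts stayed within 1.5 times. At 75186 counts, low messages are not detectable.

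The replicate numbers share only a number between the preparations. Same-numbered SynSURF and sucrose sorted libraries had correlations of -0.0272, -0.182 and -0.0418, and a replicate block gave 2 higher and 0 lower, with 576 genes at an unadjusted p under 0.05. Crude and sorted libraries of 1 number had 0.278 to 0.433 in sucrose and 0.0156 to 0.132 in SynSURF, where 4 of 10 matched best with their own number. A block for these gave 10 in the SynSURF direction and 2708 in the sucrose direction. Of 23 named genes called in that contrast 21 stayed called with the block, 21 with totals and 20 at equal depth, all with the same sign.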
